A study of Mus musculus with 6 samples.

Results

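The Slc25a genes encode the mitochondrial solute carriers, a family of membrane proteins that move nucleotides, phosphate, metabolites, cofactors and ions across the inner mitochondrial membrane. Their transcripts were compared in 3 heart samples from STAT3cKO mice and 3 from wild-type mice. Members were all rows of the count table whose symbol starts with Slc25a and that held at least 1 count, without the single pseudogene row. Of 47 such rows, 2 (Slc25a48 and Slc25a54) held no count in any heart, which left 45 members among 25015 genes with a count in the series. The filter on low counts kept 38 of these 45 for testing.

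In the STAT3cKO mice the transcription factor STAT3 was deleted in cardiomyocytes, and the wild-type mice are the only other group. The series asked which pathways that bear on heart function differ between them. The labels give neither the Cre line nor age, sex, litter or batch, and do not tie a library to one animal, so the p-values may measure a spread that is partly technical. The numbers in the sample titles (3, 6 and 91 for STAT3cKO; 1, 3 and 4 for wild type) name the hearts, and values per heart are given in that order. Unless stated otherwise, values are CPM, counts scaled to a common library size by TMM, given as mean ± SD over 3 hearts, and "rose" and "fell" are used for an edgeR adjusted p under 0.05.

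A beating heart makes nearly all of its ATP in mitochondria. ATP leaves and ADP enters the matrix through the ADP/ATP carriers, phosphate enters through its own carrier, fatty acids enter as acylcarnitines, and the malate-aspartate shuttle carries reducing equivalents through an oxoglutarate/malate and an aspartate/glutamate carrier. Carriers are encoded in the nucleus, made in the cytosol and inserted into the inner membrane with the help of small chaperones of the intermembrane space.

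Stat3 was at 52.9, 63.8 and 59.6 CPM in STAT3cKO hearts, and at 99.7, 85.8 and 97.5 CPM in wild-type hearts (log2 fold change -0.68, edgeR adjusted p = 0.000677). Total counts ran from 15416877 to 17867944 in STAT3cKO and from 16168682 to 18264052 in wild-type hearts. Of the marker lists used, 3 of 8 cardiomyocyte genes rose and 1 fell, 5 of 6 endothelial, 5 of 6 smooth muscle and pericyte and 5 of 6 macrophage genes fell, and 4 of 5 tested red blood cell genes rose. Of 6 fibroblast genes 1 rose and 2 fell, and Tnnt3 rose of 2 tested skeletal muscle genes. Among all genes tested, 13.2% rose and 12.6% fell. In a fit with an offset for transcript length and GC content, described further on, 1 cardiomyocyte gene rose and 0 fell. There 4 endothelial, 3 smooth muscle and pericyte and 6 macrophage genes fell. Of the fibroblast genes 1 rose and 1 fell, and 0 red blood cell genes passed. With that offset 10.4% of all genes rose and 7.59% fell. Summed cardiomyocyte markers stood between 52270 and 62540 CPM in STAT3cKO and between 45380 and 50320 CPM in wild-type hearts. The single markers did not move together. Myl2 (mean 12720 CPM in STAT3cKO, 7317 CPM in wild-type hearts), Tnnt2 (6927 and 4730 CPM) and Tnni3 (5619 and 3659 CPM) rose. Ryr2 fell (919.9 and 1447 CPM). Myh6, at 16130 and 17020 CPM, did not pass, nor did Actc1, Pln and Nppa. Summed endothelial markers stood between 603.5 and 678.7 CPM in STAT3cKO and between 957.6 and 1116 CPM in wild-type hearts. These are bulk samples, in which fewer cells of a type and less RNA per cell cannot be told apart, and the part of cell makeup in the results below was not tested. Of the 6 adipocyte genes none of the 2 tested (Cidea and Cfd) rose or fell, and Ucp1, Plin1, Lep and Adipoq were at or near 0, with a highest value of 1.61 CPM.

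The summed level of the family in STAT3cKO hearts was close to that in wild-type hearts. Summed over the 45 members, transcripts stood at 7612, 8038 and 6839 CPM in STAT3cKO hearts, and at 7787, 6861 and 7261 CPM in wild-type hearts. The groups overlapped, with the highest and the lowest sum both in STAT3cKO hearts. Slc25a3, Slc25a4 and Slc25a5 held 80.15% to 82.16% of the member counts in each heart, so the sum says little about the other members. Of the 38 tested members, 4 rose (10.5%) and 2 fell (5.26%), a total of 15.8%, and 32 did not pass, whereas among all 14484 genes tested 13.2% rose and 12.6% fell, a total of 25.8%. At an unadjusted p under 0.05, 6 members were higher (15.8%) and 4 lower (10.5%), against 19.2% and 19.4% of all genes. Scaling by library size alone, which moved the median over all genes to -0.11 (log2), gave 2 members higher (5.26%) and 6 lower (15.8%), against 7.66% and 18.7% of all genes. The groups did not overlap for 8 members that were higher in STAT3cKO hearts (21.1%) and for 5 that were lower (13.2%), against 21.5% in each direction and 43% in all among the genes tested. The median log2 fold change was -0.004 over the 38 members and -0.002 over all genes. For 23 of the 38, the 95% interval of the difference lay wholly within 1.5-fold in either direction.

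**Figure D1:**
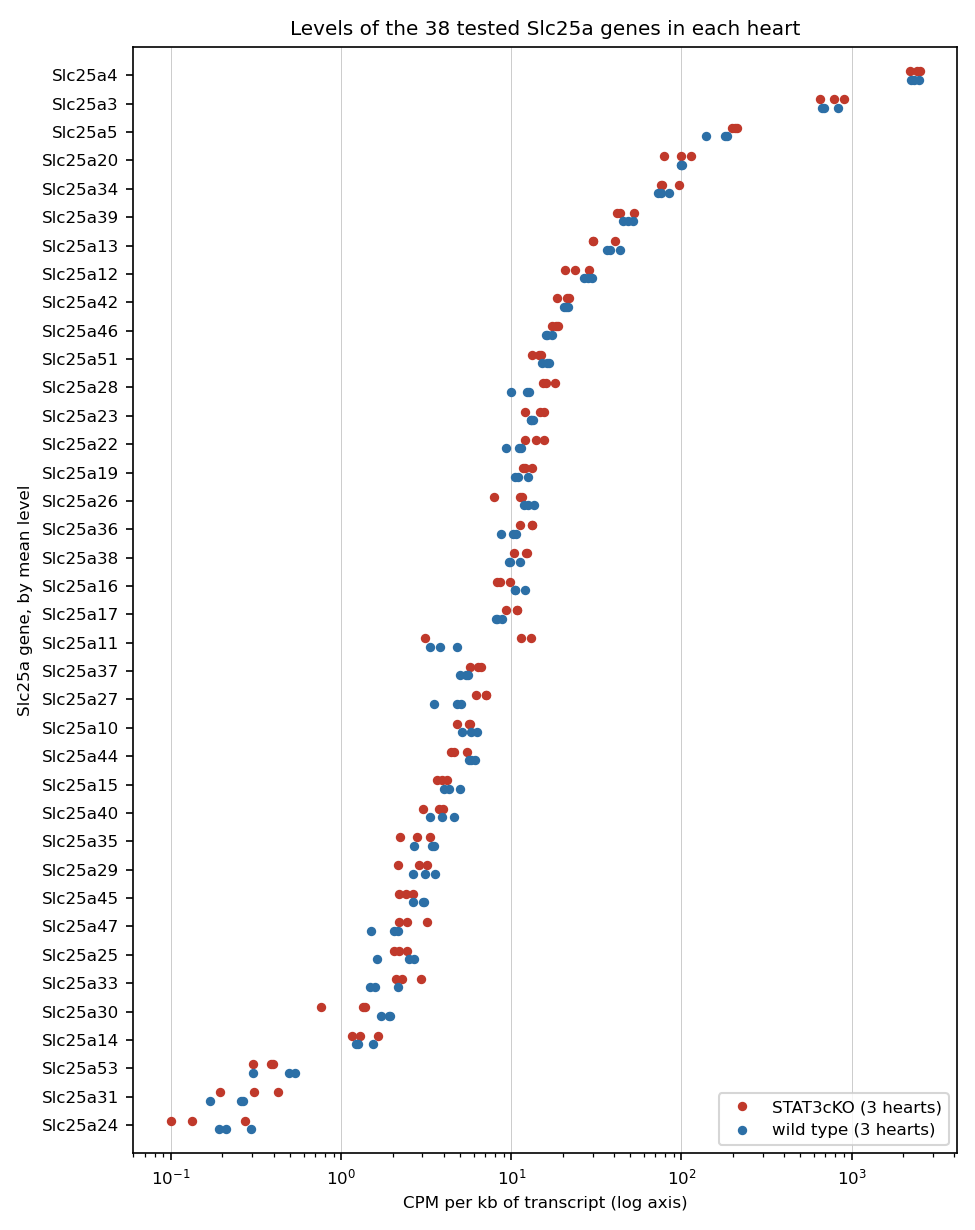
Level of each of the 38 tested members in each heart, in CPM per kb of transcript on a log axis, with members ordered by their mean and one point per heart (STAT3cKO in red, wild type in blue). Slc25a4, Slc25a3 and Slc25a5 lead, and Slc25a11 has 1 STAT3cKO heart apart from the other two.

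A few carriers made up most of the family's RNA. Slc25a4, the ADP/ATP carrier of heart and muscle, took 61.6%, 60.1% and 62.3% of all member counts in STAT3cKO hearts, and 61.9%, 62.3% and 61.8% in wild-type hearts. Per kb of transcript, and over all 6 hearts, Slc25a4 ran from 2215 to 2510 CPM per kb and the phosphate carrier Slc25a3 from 655.4 to 898.2 CPM per kb. The second ADP/ATP carrier, Slc25a5, ran from 139.8 to 212.7 CPM per kb. The carnitine/acylcarnitine carrier Slc25a20 followed at 78.8 to 113 CPM per kb and Slc25a34, which is related to the oxaloacetate carrier of yeast, at 72.4 to 96.1 CPM per kb. Slc25a39, a glutathione carrier, ran from 41.6 to 52.6 CPM per kb. Of these 6, the ranges overlapped for the neighbours Slc25a20 and Slc25a34 and for no other neighbours in the order. A total of 18 members averaged over 10 CPM per kb.

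The most abundant carriers, those of ADP/ATP and phosphate, did not pass the test. Slc25a4 was at 4688, 4831 and 4263 CPM in STAT3cKO hearts and at 4822, 4275 and 4490 CPM in wild-type hearts. The groups overlapped, and the fold difference of 1.01 had a 95% interval of 0.865 to 1.19. Slc25a3 averaged 1258 ± 196 CPM in STAT3cKO and 1175 ± 148 CPM in wild-type hearts (SD, n = 3 each), with an interval of 0.879-fold to 1.30-fold. Slc25a5 was at 263.7, 255.8 and 246.6 CPM in STAT3cKO hearts and at 230.4, 173.4 and 224.8 CPM in wild-type hearts. Every STAT3cKO heart lay above every wild-type heart, yet the log2 fold change of 0.28 ± 0.11 (SE) did not pass (edgeR adjusted p = 0.0784), and it was 0.07 once transcript length and GC content were taken into account as described further on. Slc25a5 has processed copies in the genome, of which the one row left out of the members held 3 counts over all hearts, and how reads with several matches were counted is not stated. The ATP-Mg/phosphate carriers, which adjust the adenine nucleotide content of the matrix, comprised Slc25a23 at 47.4 ± 6.16 CPM in STAT3cKO and 44.4 ± 0.632 CPM in wild-type hearts (SD, n = 3 each), Slc25a25 at 7.30 ± 0.652 CPM and 7.46 ± 1.89 CPM, and Slc25a24 below 1.1 CPM in each heart. With edgeR, none of the 7 tested genes of this role group rose or fell, against 25.8% of all genes, and so small a group cannot show that the role is spared. At an unadjusted p under 0.05, 1 was higher, and DESeq2 and limma-voom called 0.

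**Figure D2:**
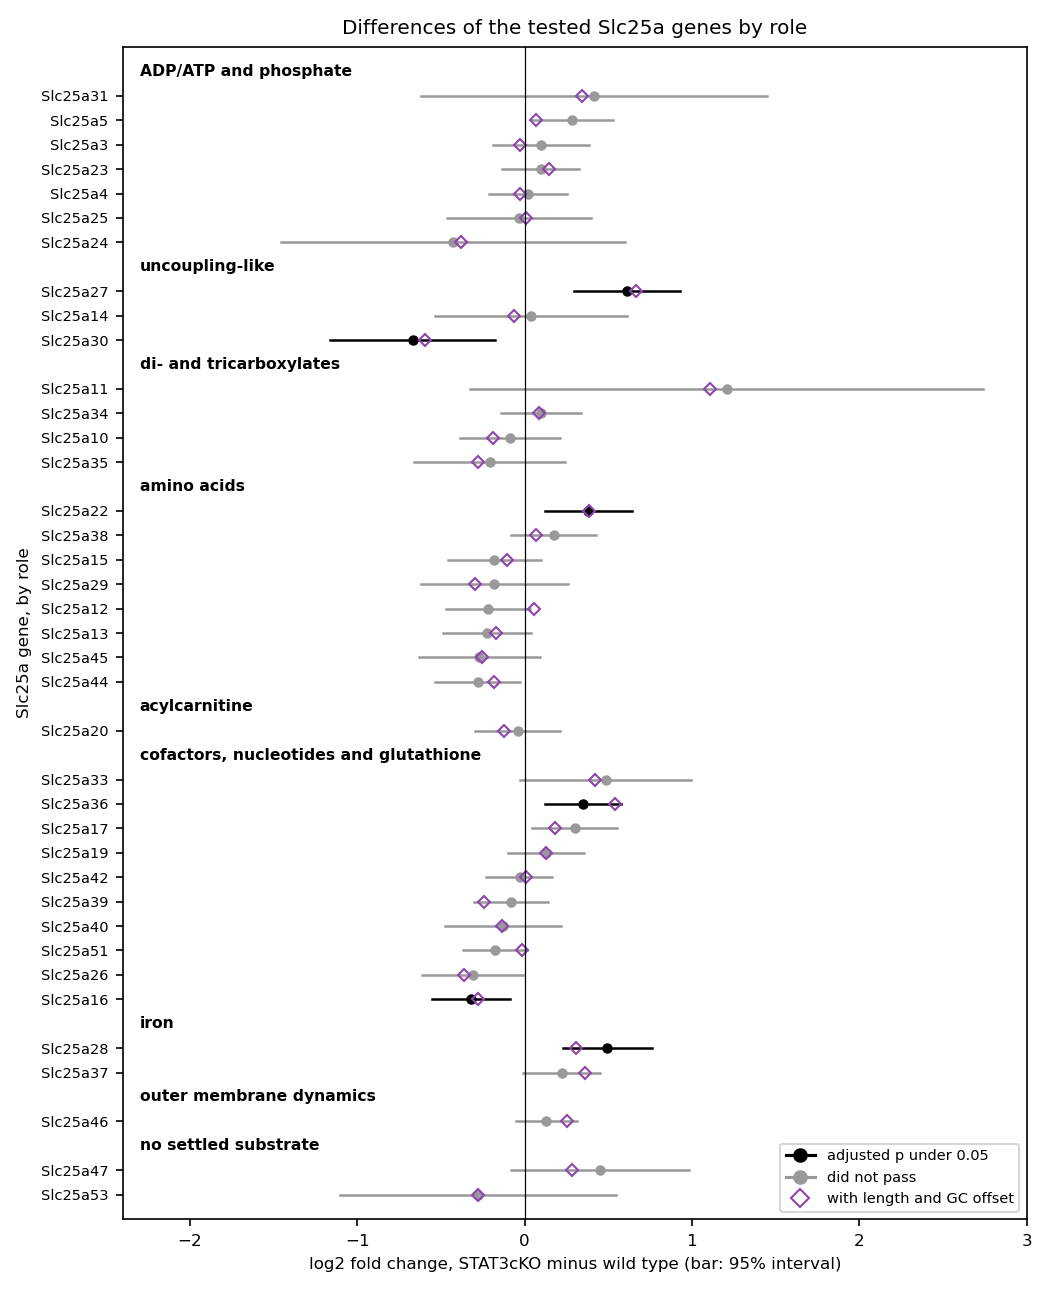
Log2 fold change (STAT3cKO minus wild type) of each tested member with its 95% interval, grouped by role; black marks an adjusted p under 0.05, grey the rest, and open diamonds the value with the length and GC offset. The 6 black members lie in 4 of the 9 role groups, and the intervals of Slc25a4 and Slc25a3 straddle 0.

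The tested di- and tricarboxylate carriers and the acylcarnitine carrier were likewise not called. With edgeR, 0 of the 4 tested di- and tricarboxylate carriers rose or fell, against 25.8% of all genes. DESeq2 and limma-voom also called 0, and 0 had an unadjusted p under 0.05. A group of 4 is too small to show that a role is spared. Slc25a20, through which acylcarnitines enter the matrix, averaged 173 ± 30.99 CPM in STAT3cKO and 178 ± 1.49 CPM in wild-type hearts (SD, n = 3 each; fold difference 0.971, 95% interval 0.813 to 1.16). Slc25a34 averaged 221 ± 30.8 CPM in STAT3cKO and 207 ± 16.5 CPM in wild-type hearts, and the dicarboxylate carrier Slc25a10 averaged 10.9 ± 1.05 CPM in STAT3cKO and 11.6 ± 1.16 CPM in wild-type hearts (SD, n = 3 each). The aspartate/glutamate carriers of the malate-aspartate shuttle were lower in the mean. Slc25a12 averaged 155 ± 25.9 CPM in STAT3cKO and 180 ± 9.75 CPM in wild-type hearts, and Slc25a13 averaged 105 ± 18.3 CPM in STAT3cKO and 123 ± 11.9 CPM in wild-type hearts (SD, n = 3 each). Neither passed (edgeR adjusted p = 0.186 and 0.197). STAT3cKO heart 6 was the highest of its group for both, so leaving it out favours a lower value. Without it both passed (log2 fold change -0.35 and -0.38, edgeR adjusted p = 0.0211 and 0.0165). In the other fits that left out a heart neither passed, with edgeR adjusted p up to 0.533 for Slc25a12 and 0.491 for Slc25a13. Both also passed when counts were scaled by library size alone, and the value of Slc25a12 was 0.05 with the length and GC offset.

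Slc25a11, the oxoglutarate/malate carrier that is the partner of these genes in the shuttle, differed among the STAT3cKO hearts. It stood at 19.5 and 22.5 CPM in STAT3cKO hearts 3 and 6 but at 5.31 CPM in heart 91, and at 5.66, 8.17 and 6.53 CPM in wild-type hearts. So 2 of the STAT3cKO hearts lay above all wild-type hearts and the remaining one below all of them. The log2 fold change of 1.21 ± 0.59 (SE) did not pass (edgeR adjusted p = 0.206). Without STAT3cKO heart 91, the heart that lay apart, it was 1.64 (edgeR adjusted p = 7.77e-05). That heart was singled out only after its value was seen. In the other fits that left out a heart Slc25a11 did not pass (edgeR adjusted p from 0.311 to 0.404). The gene (chromosome 11, 70644196 to 70647479, minus strand) shares 8.92% of its exon bases with Rnf167 on the opposite strand. Rnf167 was at 1.91, 0.454 and 0.712 CPM in STAT3cKO hearts and at 0.721, 0.776 and 2.19 CPM in wild-type hearts. The part of this overlap in the Slc25a11 values was not tested. Whether counting used strand is not stated.

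Of the 6 members that passed, 2 belong to the uncoupling-like branch, whose proteins resemble the uncoupling proteins of brown fat in sequence. Of its 3 tested genes 1 rose and 1 fell (33.3% each, against 13.2% and 12.6% of all genes), too few to describe the branch. Slc25a27, best known from brain (chromosome 17, 43641891 to 43667214), was at 20.5, 17.9 and 20.5 CPM in STAT3cKO hearts and at 10.1, 14.7 and 13.8 CPM in wild-type hearts. The groups did not overlap, and the rise was 1.53-fold (log2 fold change 0.61 ± 0.15 SE, 95% interval 1.23-fold to 1.90-fold, edgeR adjusted p = 0.00947). Among the 6 called members only Slc25a27 passed under each of the 10 other settings tried and in each of the 6 fits that left out a heart. Slc25a30, first described from kidney (chromosome 14, 75760117 to 75787037), was at 2.73, 4.93 and 4.82 CPM in STAT3cKO hearts and at 6.95, 6.86 and 6.14 CPM in wild-type hearts. It fell to 0.629 of its wild-type level (log2 fold change -0.67 ± 0.23 SE, edgeR adjusted p = 0.0459). It no longer passed without robust estimation (edgeR adjusted p = 0.0537), without STAT3cKO heart 3 (0.14), or without wild-type heart 1 (0.118), 3 (0.106) or 4 (0.0796). Slc25a14, the third gene of the branch, averaged 2.41 ± 0.443 CPM in STAT3cKO and 2.35 ± 0.295 CPM in wild-type hearts (SD, n = 3 each).

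**Figure D3:**
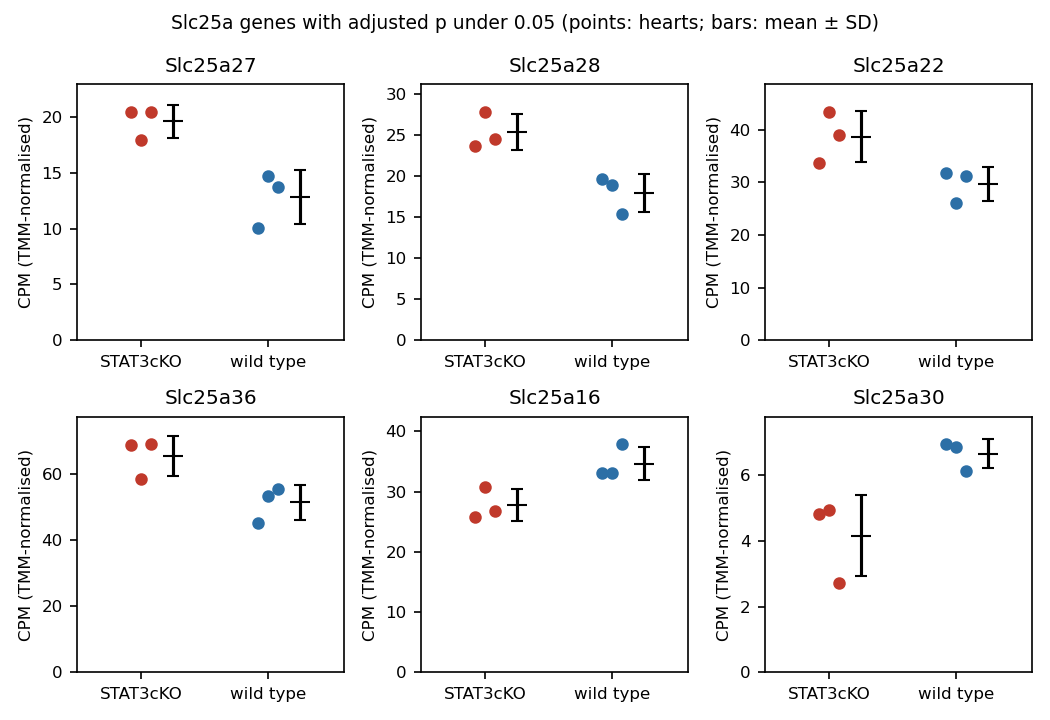
CPM of the 6 members with an adjusted p under 0.05, one point per heart with mean ± SD beside, on axes that start at 0 (STAT3cKO left, wild type right). The 3 STAT3cKO points and the 3 wild-type points do not overlap in any panel. The panels were picked by the test on these same values, which favours such separation, and 43% of all tested genes separate. Slc25a30 has 1 STAT3cKO heart, at 2.73 CPM, well below the others of its group.

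Both iron carriers separated the groups, with all STAT3cKO hearts above all wild-type hearts, and 1 of them passed; 21.5% of all tested genes were likewise higher without overlap. The mitoferrins bring iron into the matrix for haem and iron-sulphur clusters. Slc25a28 (mitoferrin-2; chromosome 19, 43663801 to 43674881) was at 24.4, 27.8 and 23.7 CPM in STAT3cKO hearts and at 19.6, 18.9 and 15.3 CPM in wild-type hearts. The rise was 1.41-fold (log2 fold change 0.49 ± 0.12 SE, edgeR adjusted p = 0.0118). Without wild-type heart 4, the lowest heart, edgeR gave an adjusted p of 0.0538, and the offset for length and GC content brought the log2 difference to 0.31 (edgeR adjusted p = 0.0968). Slc25a37 (mitoferrin-1), the form used by developing red blood cells, was at 26.5, 27.5 and 23.7 CPM in STAT3cKO hearts and at 23.1, 20.7 and 22.7 CPM in wild-type hearts (log2 fold change 0.22 ± 0.11 SE, edgeR adjusted p = 0.142). Red blood cell markers summed to 335.2, 685.9 and 342.2 CPM in STAT3cKO hearts and to 132.5, 159.5 and 90.9 CPM in wild-type hearts. None of the 4 called red blood cell genes passed with that offset (edgeR adjusted p from 0.0528 to 0.148). Their log2 fold changes ran from 1.18 to 1.78 with it and from 1.61 to 2.26 without it. The part of red blood cells in the mitoferrin values was not tested.

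Among amino acid carriers, 1 of 8 tested rose (12.5%, against 13.2% of all genes). Slc25a22, which brings glutamate into the matrix (chromosome 7, 141429744 to 141437892), was at 38.96, 43.4 and 33.8 CPM in STAT3cKO hearts and at 31.9, 26.01 and 31.2 CPM in wild-type hearts (1.30-fold, log2 fold change 0.38 ± 0.12 SE, edgeR adjusted p = 0.0333). Its related gene Slc25a18 held at most 5 counts in a heart and was not tested. Slc25a22 no longer passed with library size alone (edgeR adjusted p = 0.113), without STAT3cKO heart 3 (edgeR adjusted p = 0.0859) or 6 (0.0906), or without wild-type heart 1 (0.0504), 3 (0.14) or 4 (0.0645). The other 7 ranged in log2 fold change from -0.28 for Slc25a44, the carrier of branched-chain amino acids, to 0.17 for Slc25a38, the glycine carrier. Slc25a44 averaged 16.9 ± 1.92 CPM in STAT3cKO and 20.5 ± 0.908 CPM in wild-type hearts without overlap (SD, n = 3 each; edgeR adjusted p = 0.0972). It passed with library size alone (edgeR adjusted p = 0.0261) and without STAT3cKO heart 6 (0.0302).

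Of 10 tested carriers of cofactors, nucleotides and glutathione, 1 rose and 1 fell (10% each, against 13.2% and 12.6% of all genes). Slc25a36, a carrier of pyrimidine nucleotides (chromosome 9, 97074961 to 97111157), was at 69.1, 58.4 and 68.9 CPM in STAT3cKO hearts and at 45.4, 53.4 and 55.5 CPM in wild-type hearts. The rise was 1.27-fold (log2 fold change 0.35 ± 0.11 SE, edgeR adjusted p = 0.0281). It no longer passed with library size alone (edgeR adjusted p = 0.139), without STAT3cKO heart 3 (0.1) or 91 (0.0771), or without wild-type heart 1 (0.114) or 3 (0.0598). Slc25a16, whose yeast relative is needed for coenzyme A in mitochondria (chromosome 10, 62920633 to 62946498), was at 26.8, 30.8 and 25.7 CPM in STAT3cKO hearts and at 33.1, 33.1 and 37.9 CPM in wild-type hearts. It fell to 0.801 of its wild-type level (log2 fold change -0.32 ± 0.11 SE, edgeR adjusted p = 0.046), just inside the threshold, and did not pass with DESeq2 (adjusted p = 0.0661), with edgeR without robust estimation (0.0526) or in any fit that left out a heart other than STAT3cKO heart 6 (edgeR adjusted p from 0.0689 to 0.172). The remaining 8 ranged in log2 fold change from -0.31 for Slc25a26, the carrier of S-adenosylmethionine, to 0.48 for Slc25a33, another pyrimidine nucleotide carrier. They include the coenzyme A carrier Slc25a42 at 65.6 ± 5.70 CPM in STAT3cKO and 67.0 ± 1.68 CPM in wild-type hearts, and the NAD carrier Slc25a51 at 63.2 ± 3.73 CPM in STAT3cKO and 71.3 ± 3.49 CPM in wild-type hearts (SD, n = 3 each). They also include Slc25a17, a cofactor carrier of peroxisomes, at 17.8 ± 1.47 CPM in STAT3cKO and 14.5 ± 0.664 CPM in wild-type hearts (SD, n = 3 each; edgeR adjusted p = 0.0766). Neither tested member without a settled substrate passed; Slc25a47 averaged 4.11 ± 0.839 CPM in STAT3cKO and 2.99 ± 0.556 CPM in wild-type hearts without overlap (SD, n = 3 each; edgeR adjusted p = 0.193), and Slc25a53 averaged 0.929 ± 0.132 CPM in STAT3cKO and 1.14 ± 0.319 CPM in wild-type hearts.

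The promoters of called members were set beside a STAT motif, since STAT3 binds DNA. RefSeq promoters (GRCm38.p6, 250 bases before to 50 after a start) were on hand for 34 of the 45 members, 44 promoters in all, and not for Slc25a27. The sequence TTCNNNGAA, which reads the same on both strands, occurred in 1 of these 44 (2.27%) and in 8.3% of all 32851 promoters in the table. The motif TNAAGGTCA of estrogen-related receptors, nuclear receptors of mitochondrial gene expression, was searched on both strands and occurred in 0 of the 44 and in 1.28% of all promoters. The promoter with the STAT motif was that of Slc25a36, and it is shown beside that of Slc25a28, another member that rose and whose window does not hold these letters. Each is written along the gene's own strand, the minus strand, with the motif in capitals (chr9:97110992-97111291 and chr19:43674832-43675131).
Slc25a36: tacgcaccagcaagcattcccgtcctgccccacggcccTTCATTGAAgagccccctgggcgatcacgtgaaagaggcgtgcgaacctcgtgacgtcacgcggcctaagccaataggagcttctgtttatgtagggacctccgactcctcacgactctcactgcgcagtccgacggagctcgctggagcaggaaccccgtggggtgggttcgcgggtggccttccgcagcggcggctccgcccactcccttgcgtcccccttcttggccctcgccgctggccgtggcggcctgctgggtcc
Slc25a28: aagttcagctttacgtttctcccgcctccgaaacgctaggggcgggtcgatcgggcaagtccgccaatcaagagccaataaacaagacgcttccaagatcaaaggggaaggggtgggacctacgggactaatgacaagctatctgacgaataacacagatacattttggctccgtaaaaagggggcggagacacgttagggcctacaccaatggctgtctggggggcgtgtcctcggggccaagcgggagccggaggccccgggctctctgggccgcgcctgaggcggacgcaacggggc
The match begins at -212 relative to the start of Slc25a36. It describes the letters only and is no measure of binding. The 44 member promoters had a median GC content of 59.3%, against 52.7% in all promoters.

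Fold changes in these libraries followed transcript length, and this touched the carriers. The slope of each heart's log2 level, relative to the mean of all hearts, on log2 length was -0.112, -0.084 and -0.116 in STAT3cKO hearts. It was 0.053, 0.11 and 0.15 in wild-type hearts. The trend thus coincided with genotype, so a technical and a real difference cannot be told apart. An offset for the trend may remove either. Rank correlation (Spearman) of log2 fold change with length gave a rho of -0.457 over the 13580 tested genes with a known length and -0.372 over the 38 members (a description across genes, which are not independent replicates). Members were 1240 to 6351 nt long, with a median of 2590.5 nt against 2939.5 nt for all tested genes. With a trend on length and GC content fitted to each heart and entered as an offset, rho across the members was -0.05. In that edgeR fit 4 members rose and 0 fell, where 10.4% of all genes rose and 7.59% fell, 18% in all. At an unadjusted p under 0.05 it had 4 members lower, for which no share of all genes is given here. Without the offset DESeq2 called 1 member lower and limma-voom 2, beside 1739 and 1836 of all 14484 genes. Slc25a27 (0.67, edgeR adjusted p = 0.00846) and the long transcript of Slc25a36 (0.54, adjusted p = 0.00321) passed both with and without the offset. Slc25a37 (0.36, edgeR adjusted p = 0.0325) and Slc25a46 (0.25, adjusted p = 0.0482), an outer membrane protein of mitochondrial dynamics, passed with the offset only. Slc25a28 (0.31, edgeR adjusted p = 0.0968), Slc25a22 (0.38, adjusted p = 0.0518), Slc25a16 (-0.28, adjusted p = 0.0888) and Slc25a30 (-0.60, adjusted p = 0.078) kept their sign without passing.

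**Figure D4:**
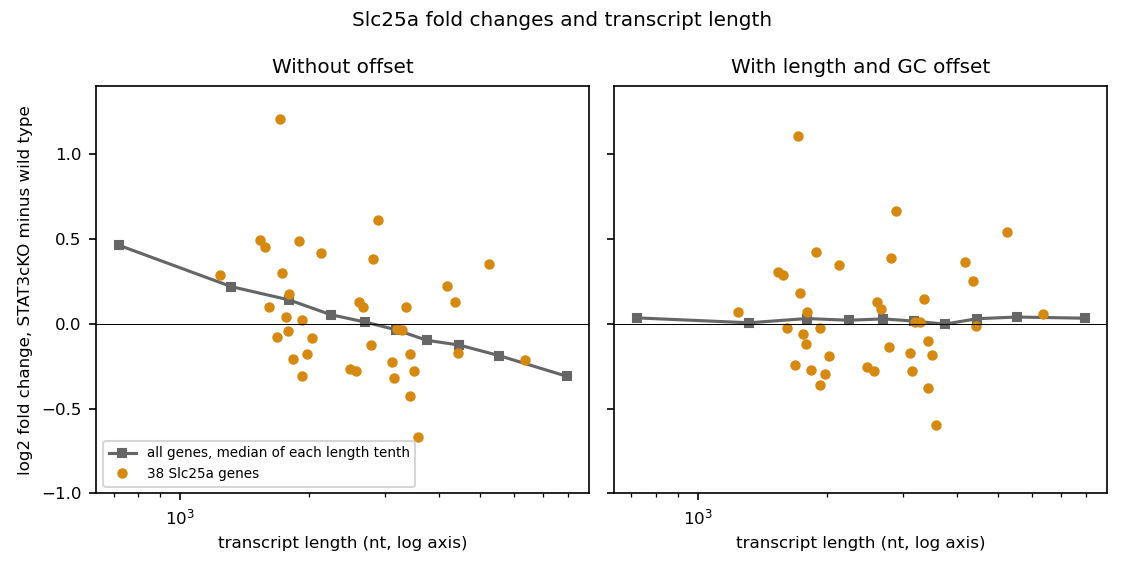
Log2 fold change (STAT3cKO minus wild type) against transcript length in nt on a log axis, without the offset on the left and with it on the right; orange points are the 38 tested members and grey squares the medians of all genes in 10 bins of length. The grey line runs from 0.46 to -0.31 on the left and stays within 0.04 of 0 on the right, while the members spread around it in both.

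Ratios within 7 pairs of carriers with a like substrate were compared heart by heart, since a ratio does not depend on library scaling. The Slc25a4 count was 17.97 times that of Slc25a5 in STAT3cKO hearts and 21.76 times in wild-type hearts (geometric means), a difference in log2 ratio of -0.28 with no overlap between the groups. The log2 ratio of Slc25a28 to Slc25a37 averaged -0.04 ± 0.07 in STAT3cKO and -0.31 ± 0.23 in wild-type hearts (SD, n = 3 each), again with no overlap. For both pairs the two-sided exact permutation p was 0.1, the smallest that 3 against 3 can give, and 0.35 after adjustment over the 7 pairs. With the length and GC trend removed, the difference was -0.10 for Slc25a4 over Slc25a5 and -0.06 for Slc25a28 over Slc25a37. The groups overlapped for the other 5 pairs, among them Slc25a12 over Slc25a13, at a log2 ratio of 0.56 ± 0.10 in STAT3cKO and 0.56 ± 0.15 in wild-type hearts (SD, n = 3 each).

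**Figure D5:**
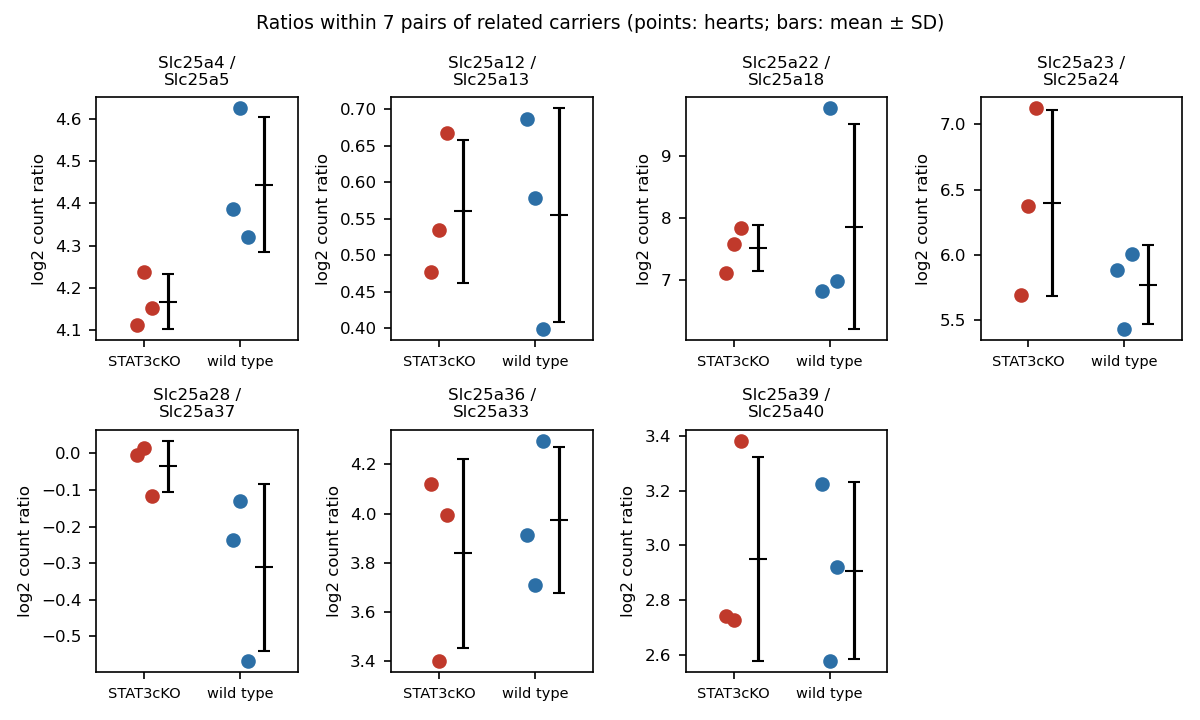
Log2 ratio of counts within each of 7 pairs of related carriers, one point per heart with mean ± SD beside (STAT3cKO left, wild type right); each panel has its own axis, which does not start at 0. The groups separate for Slc25a4 over Slc25a5 and for Slc25a28 over Slc25a37 and overlap in the other 5 panels. The panel of Slc25a22 over Slc25a18 rests on at most 5 counts of Slc25a18 in a heart.

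A further 7 members were too low to test, each with at most 10 counts in any heart. They were the citrate carrier Slc25a1, with 3, 0 and 0 counts in STAT3cKO hearts and 3, 2 and 3 in wild-type hearts, the folate/FAD carrier Slc25a32, and Slc25a2, Slc25a18, Slc25a21, Slc25a41 and Slc25a43. Differences in these genes were not detectable from these counts. How far the low counts of Slc25a1 and Slc25a11 come from the way reads were assigned, which is not stated, was not tested.

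Genes around the family were read from 2 lists. Both lists were chosen with earlier results of these data known, so their shares beside those of all genes only describe the lists. Of 8 tested genes for the import of carriers, 4 rose and 0 fell with edgeR (50% against 13.2% of all genes), and at an unadjusted p under 0.05 5 were higher and 0 lower; DESeq2 and limma-voom each called 4 higher and 0 lower. The 4 that rose are among 6 tested small Tim proteins, chaperones of the intermembrane space that hand carriers and other hydrophobic proteins to the inner membrane. The other two were Timm13, which differed by 0.34 on the log2 scale (edgeR adjusted p = 0.0689), and Timm8a1, at 0.05 (adjusted p = 0.892). Timm10 was at 53.8, 50.4 and 56.7 CPM in STAT3cKO hearts and at 35.1, 26.7 and 30.1 CPM in wild-type hearts (log2 fold change 0.81, edgeR adjusted p = 0.000542). Timm8b (0.77), Timm9 (0.65) and Timm10b (0.64) rose with it, while Timm22, the core of the inner membrane insertase, stood at 0.17 (edgeR adjusted p = 0.249). With the length and GC offset the same 4 genes passed at 0.41, 0.28, 0.34 and 0.71, in the order Timm10, Timm8b, Timm9 and Timm10b, and so did Tomm70a, the outer membrane receptor for carriers, at 0.33. Of 17 tested genes of other mitochondrial transport, 4 rose and 0 fell with edgeR (23.5% against 13.2%), and at an unadjusted p under 0.05 7 were higher and 2 lower; DESeq2 called 4 higher and limma-voom 3, and neither called one lower. Mpc1, a subunit of the pyruvate carrier, averaged 51.7 ± 7.29 CPM in STAT3cKO and 26.3 ± 7.55 CPM in wild-type hearts (SD, n = 3 each; log2 fold change 0.97, edgeR adjusted p = 0.0071), and its partner Mpc2 differed by 0.29 on that scale (edgeR adjusted p = 0.0961). The others that rose were Tspo (0.74), Sfxn5 (0.75) and Sfxn4 (0.64), of which Tspo and Sfxn4 did not pass with the offset (edgeR adjusted p = 0.101 and 0.115), where Sfxn2 passed at 0.52. Ucp1, the uncoupling protein of brown fat, had no count in any heart, and Ucp3, the form of muscle, was at 51.3, 112.2 and 37.1 CPM in STAT3cKO hearts and at 50.9, 54.1 and 53.9 CPM in wild-type hearts, which overlapped.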

How the data were processed

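RNA was sequenced from whole hearts. Per the labels' protocols, RNA was extracted with Trizol and libraries followed standard Illumina methods; per the submitters' processing notes, HISAT2 and GRCm38 were used. The deposited file gives whole-number counts for each gene symbol in each heart, not normalized by the authors. The counter, annotation, strand setting and handling of multi-mapping reads are unstated. Genes passing filterByExpr (minimum count 10) were scaled by TMM and compared by edgeR 4.0.16's robust quasi-likelihood F test in R 4.3.3, genotype being the only term, with Benjamini-Hochberg adjustment over all 14484 genes; the steps were tested on simulated data. SE is the log2 fold change over the square root of F; intervals are 95%. Fits with other scalings, filters and tools (DESeq2 1.42.0, limma-voom 3.58.1), an offset from splines (5 degrees of freedom) on transcript length and GC content, and fits leaving out each heart were run beside it. Lengths came from GENCODE M21 (GRCm38; 73.7% of 46095 symbols), using the principal transcript, and positions from the same release. Ratios used counts plus 0.5. Named were members that passed, the 6 highest per kb, and the paired genes; others, such as Slc25a11, were chosen after their values were seen. Members and lists were chosen with earlier results of these data known.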

Additional observations from a re-analysis of the deposited data

How the results depend on the processing

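Scaling by library size alone shifted the median over all genes to -0.11 (log2) and gave 1109 genes higher and 2714 lower, with 2 members higher and 6 lower. The length and GC offset left 1501 genes higher and 1100 lower, and 0 members lower (4 at an unadjusted p under 0.05). With edgeR without robust estimation 1782 genes and 0 members were lower (3 members at an unadjusted p under 0.05). DESeq2 had 1739 genes and 1 member lower. Leaving out 1 heart gave 1237 to 1887 genes higher, 1198 to 1999 lower, 2 to 4 members higher and 0 to 5 lower. The other scalings, filters and limma-voom kept the counts of members called within 1.5 times. Members that did not pass and changed sign were Slc25a3 (-0.024), Slc25a4 (-0.096), Slc25a14 (-0.064), Slc25a23 (-0.012) and Slc25a34 (-0.02) with library size alone, Slc25a4 (-0.002) without a filter, and Slc25a3 (-0.026), Slc25a4 (-0.026), Slc25a12 (0.054), Slc25a14 (-0.062), Slc25a25 (0.011) and Slc25a42 (0.011) with the offset. Leaving out 1 heart gave -0.165 to 0.001 for Slc25a10, -0.114 to 0.147 for Slc25a14, -0.17 to 0.096 for Slc25a20, -0.075 to 0.048 for Slc25a42, -0.015 to 0.218 for Slc25a3, -0.023 to 0.079 for Slc25a4, -0.024 to 0.162 for Slc25a34 and -0.23 to 0.104 for Slc25a25. Log2 ratio differences ran from -0.073 to 0.071 for Slc25a12/Slc25a13, -0.871 to 0.606 for Slc25a22/Slc25a18, -0.277 to 0.084 for Slc25a36/Slc25a33 and -0.173 to 0.203 for Slc25a39/Slc25a40, and with the trend removed were -0.063 for Slc25a28/Slc25a37, 0.115 for Slc25a36/Slc25a33 and -0.108 for Slc25a39/Slc25a40. The cause of these changes was not tested. No paired analysis was possible because the groups share only the number 3. Low counts limit Slc25a24 and Slc25a31, whose intervals span more than 1.5-fold both ways. The ratio of Slc25a22 to Slc25a18 is limited by the low counts of Slc25a18.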
